A study of Mus musculus with 18 samples.

Results

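Angiogenin (Ang), ribonuclease 4 (Rnase4) and the ribonuclease inhibitor (Rnh1) were read in 18 sorted-cell RNA libraries of the mouse small intestine. They are 3 of the 23238 gene symbols in the count tables, each on 1 row. The 3 genes were chosen by their pattern in the comparisons between genotypes, in particular the low Ang counts in both cell types, and because Ang and Rnase4 share promoters. Their differences between genotypes are therefore given as a description, with no p.

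The study deleted Lats1 and Lats2, the Hippo pathway kinases that restrain YAP and TAZ, in PDGFRβ+ cells of adult C57BL/6J mice. Intestinal stromal cells (IntSCs) and intestinal lymphatic endothelial cells (LECs) were sorted by flow cytometry. The WT group carried the CreERT2 recombinase under the Pdgfrb promoter and the Tomato reporter, and gave 6 IntSC and 4 LEC libraries. The KO group carried the same Cre and reporter with Lats1 f/f and Lats2 f/f, and gave 5 IntSC and 3 LEC libraries. Cre and reporter are thus shared by all groups, and the Cre is driven in PDGFRβ+ cells, which include fibroblasts and mural cells, not in LECs as such. The Cre is active only after tamoxifen. The labels give the age as adult and do not say whether libraries with the same number came from the same animal. P-values measure the spread between these libraries.

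Angiogenin is a small secreted enzyme of the pancreatic ribonuclease family. It is known for promoting blood vessel growth, for entering the nucleus and promoting ribosomal RNA transcription, and for cutting tRNAs in stressed cells. In the mouse intestine the related Ang4 is made by Paneth cells at the crypt base. Ribonuclease 4 is another secreted member, with a preference for cutting after uridine. The ribonuclease inhibitor is a leucine-rich cytosolic protein that binds enzymes of this family very tightly and blocks them. In mouse and human, Ang and Rnase4 are transcribed from common promoters, and alternative splicing joins the shared first exons to one or the other coding exon.

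On the mouse build mm10 (GRCm38), RefSeq places Ang at chr14:51091077-51102009 on the plus strand and Rnase4 at chr14:51091077-51106151 on the plus strand. Rnh1 lies at chr7:141160326-141172851 on the minus strand. The GENCODE vM21 annotation gives 2 protein-coding transcripts of Ang and 2 of Rnase4. Transcripts Ang-202 and Rnase4-201 have 104 first-exon bases in common, and both of these exons end at base 51091253. The coding sequence of each gene lies in its own last exon. The last exon of Ang spans chr14:51101386-51102009 and that of Rnase4 chr14:51104807-51106151. These exons have 0 bases in common and stand 2797 bases apart. Reads were taken from the 3′ end of transcripts, and the 3′ ends of the annotated transcripts of each gene lie in its own last exon. Where within the genes the reads fell cannot be seen in count tables.

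**Figure D1:**
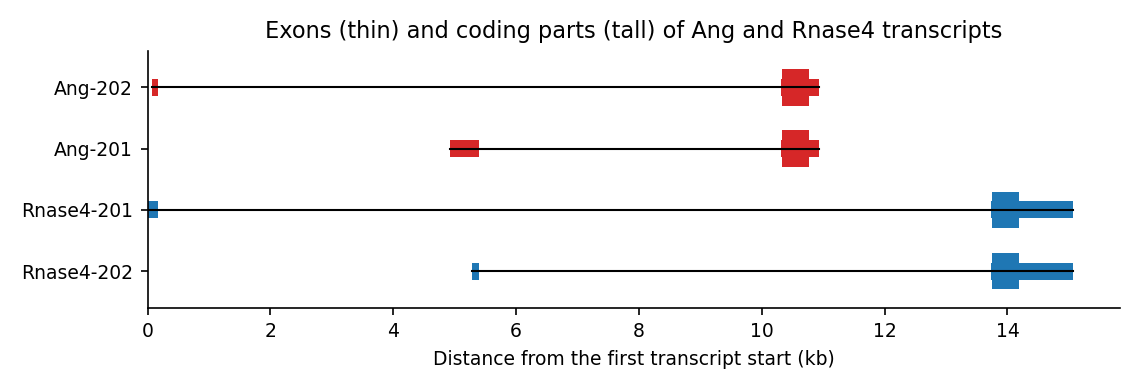
Annotated exons (low bars) and coding parts (tall bars) of the 2 Ang and 2 Rnase4 transcripts, by distance in kb from the first transcript start. Ang-202 and Rnase4-201 begin in the same first exon, while the last exons of the genes are separate, with 2797 bases between them.

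The promoter window shared by Ang and Rnase4 is shown because it links the gene whose counts were low to the gene whose counts were not. RefSeq (GRCm38.p6) gave 1 window of 300 bases for Ang, 250 before the start and 50 after it, and 2 for Rnase4. The window of Ang was identical to one of those of Rnase4, at chr14:51090827-51091126 on the plus strand. The table lists no second window for Ang. The second window of Rnase4, at chr14:51095750-51096049 on the plus strand, spans base 51096000, where GENCODE starts Ang-201, and is shown for that reason. Capitals mark GGAAT and the GC box GGGCGG, on either strand.
Ang and Rnase4, shared window: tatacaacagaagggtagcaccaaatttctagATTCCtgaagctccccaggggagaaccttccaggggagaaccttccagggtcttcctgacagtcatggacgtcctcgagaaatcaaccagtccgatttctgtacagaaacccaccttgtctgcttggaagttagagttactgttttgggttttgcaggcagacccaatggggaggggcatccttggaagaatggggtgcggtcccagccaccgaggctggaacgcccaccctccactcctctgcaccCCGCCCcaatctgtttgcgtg
Rnase4, second window: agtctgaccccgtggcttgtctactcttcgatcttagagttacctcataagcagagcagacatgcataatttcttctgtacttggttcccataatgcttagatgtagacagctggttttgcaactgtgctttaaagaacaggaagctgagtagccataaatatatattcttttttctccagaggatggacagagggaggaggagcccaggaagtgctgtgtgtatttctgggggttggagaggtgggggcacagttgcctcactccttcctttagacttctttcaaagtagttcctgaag
The shared window was 54.67% G and C and held 8 CpG pairs, against medians of 53.0% and 7 over all 32544 windows of the table. The motifs searched on both strands were the TEAD motif, of the factors that YAP and TAZ bind, as GGAAT and as the longer GGAATG that contains it, the AP-1 motif TGANTCA, the TATA box TATAAA and the GC box. Of all windows, 38.6% held GGAAT, 14.6% GGAATG, 7.789% the AP-1 motif, 13.57% the TATA box and 35.88% the GC box. The shared window held 1 GGAAT and 1 GC box, without GGAATG, the AP-1 motif or the TATA box, and the second window of Rnase4 held none of these motifs. A match of these letters is a description and does not show binding.

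The libraries held 5361250 to 7971443 counts in WT IntSCs, 6485735 to 8095271 in KO IntSCs, 7464241 to 10549233 in WT LECs and 6900493 to 8914526 in KO LECs. No fall of the targeted genes was detected in the libraries labelled KO IntSC. Lats2 was at 72.8 CPM in WT and 114 CPM in KO (log2 fold change 0.65, edgeR adjusted p = 0.252), and Lats1 at 17.5 and 16.0 CPM (edgeR adjusted p = 0.987). Reads at the 3′ end can be counted from a transcript that has lost internal exons, so this checks the deletion only in part. Of 11 LEC markers, 10 were higher and of 10 stromal markers all 10 were lower in WT LECs than in WT IntSCs (edgeR, adjusted p under 0.05). In that comparison 22.6% of all genes passed. The summed stromal markers were at 8733 to 14250 CPM in KO IntSCs and 349 to 592 CPM in KO LECs, so that in LECs every KO library was below every WT library. Their part in the levels of the members was not tested.

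In the libraries labelled KO, Ang was far lower than in WT in both cell types, while Rnase4 was not. Rnase4 overlapped between genotypes in IntSCs and was higher in all 3 KO LEC libraries than in any WT LEC library. Rnh1 overlapped between genotypes in both cell types. The share of all genes without overlap between these groups is not given, so the separation of Ang and Rnase4 is only a description. All levels are CPM, read counts scaled to a common library size with TMM factors over the 18 libraries. Since reads come from the 3′ end, no division by transcript length was made.

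Ang in WT IntSCs 1 to 6 was at 23.7, 38.0, 12.9, 20.7, 18.6 and 29.1 CPM. In KO IntSCs 1 to 5 it was at 0.523, 3.29, 2.76, 0.596 and 6.37 CPM. All 5 KO libraries lay below every WT library, and libraries 1 and 4, with 4 reads each, were the lowest. The group means were 23.8 ± 8.79 CPM (SD, n = 6) and 2.71 ± 2.40 CPM (SD, n = 5). This is −3.14 on the log2 scale (SE 0.649), and 18 of the 12421 genes tested had a value at or below it. Summed over libraries, 875 Ang reads in WT stood against 103 in KO, which is 22.1 against 2.74 CPM on the raw totals. The ratio was 8.06, with an exact 95% interval of 6.57 to 9.99 that covers counting error only.

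Ang in WT LECs 1 to 4 was at 41.8, 58.9, 22.5 and 62.4 CPM, from 439, 477, 240 and 624 reads. In KO LECs 1 to 3 it was at 0.140, 0.103 and 0.372 CPM, from 1, 1 and 3 reads. No library came near those of the other genotype. Each KO LEC library was also below every KO IntSC library, but the nearest had 3 reads (KO LEC 3) against 4 (KO IntSCs 1 and 4). The group means were 46.4 ± 18.3 CPM (SD, n = 4) and 0.205 ± 0.146 CPM (SD, n = 3). This is −7.67 on the log2 scale (SE 1.26), and its size depends on very few reads in KO LECs. Of the 10639 genes tested, 120 had a value at or below it. Summed reads were 1780 against 5, a ratio of 212 relative to the raw totals, with an exact 95% interval of 90.8 to 654. In these bulk samples, fewer cells that express a gene and less RNA per cell cannot be told apart.

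**Figure D2:**
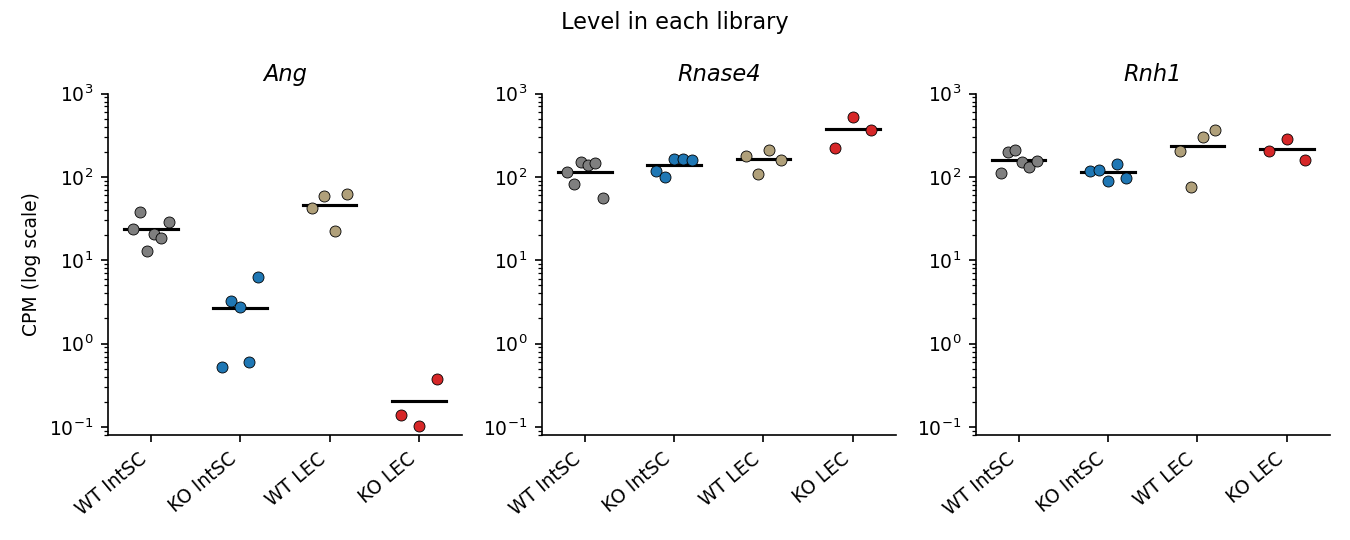
Level of Ang, Rnase4 and Rnh1 in each of the 18 libraries, in CPM on a log axis, with points for libraries and a line at each group mean. Ang is below every WT library in all 5 KO IntSC and all 3 KO LEC libraries, whereas Rnase4 in KO LECs, at 223 to 528 CPM, is above every WT LEC library and Rnh1 overlaps between genotypes.

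Rnase4 in WT IntSCs 1 to 6 was at 114, 81.5, 153, 139, 146 and 56.5 CPM. In KO IntSCs 1 to 5 it was at 118, 98.3, 162, 166 and 158 CPM. The groups overlapped, although 3 of 5 KO libraries were above every WT library. The means were 115 ± 38.7 CPM (SD, n = 6) and 141 ± 30.4 CPM (SD, n = 5), a difference of 0.29 on the log2 scale (SE 0.243) that is close to its error.

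Rnase4 in WT LECs 1 to 4 was at 180, 107, 210 and 160 CPM. In KO LECs 1 to 3 it was at 223, 528 and 370 CPM. All 3 KO LEC libraries were above every WT LEC library and above every IntSC library. How many of all genes separated in this way is not given. The means were 164 ± 43.2 CPM (SD, n = 4) and 374 ± 153 CPM (SD, n = 3), which is 1.27 higher on the log2 scale (SE 0.335). Of the 10639 genes tested in LECs, 946 had a value at or above it.

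Rnh1 in WT IntSCs 1 to 6 was at 112, 201, 209, 149, 130 and 157 CPM. In KO IntSCs 1 to 5 it was at 116, 122, 90.0, 141 and 97.1 CPM, of which 2 were below every WT library. The means were 160 ± 38.6 CPM (SD, n = 6) and 113 ± 20.3 CPM (SD, n = 5), which is −0.50 on the log2 scale (SE 0.207). In WT LECs 1 to 4 it was at 203, 76.3, 302 and 366 CPM, and in KO LECs 1 to 3 at 206, 285 and 160 CPM. The KO LEC values all lay within the WT range. The log2 fold change was −0.05 (SE 0.430), and its sign changed among the alternatives, which ran from −0.34 to 0.38.

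By the edgeR quasi-likelihood test with Benjamini-Hochberg adjustment, 183 of 12421 genes in IntSCs (1.47%) and 7 of 10639 in LECs (0.0658%) passed an adjusted p of 0.05. Ang was the 1 member of 3 among them in each case. Because the members were selected on these contrasts, nothing is read from these counts. Among the alternatives Ang passed in 19 of 21 in IntSCs and 6 of 17 in LECs, where its log2 fold change ran from −8.38 to −4.80. In LECs Rnase4 passed in 2 of 16. Rnh1 passed in none in either cell type, nor did Rnase4 in IntSCs. These counts rest on the same contrasts and are only a description.

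Rnh1 and Rnase4 were thus measured at levels of the same order in every group, and Ang was the lowest of the 3 in every one of the 4 groups by its mean. For Ang the order of group means was WT LEC, WT IntSC, KO IntSC and KO LEC, with overlap only between the WT groups. The KO groups were near the counting floor, with at least 4 reads in KO IntSC and at most 3 in KO LEC libraries. For Rnase4 it was KO LEC, WT LEC, KO IntSC and WT IntSC, and only KO LEC stood clear of the others. For Rnh1 it was WT LEC, KO LEC, WT IntSC and KO IntSC, where neighbours in the order overlapped and the 1 pair of groups without overlap was KO IntSC and KO LEC. The share of all genes without overlap is not given for any of these pairs of groups, so the separations are only a description. These levels were compared as counts of 3′ ends.

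The reads of the pair can be compared within a library without any scaling. Ang made up 17.2, 31.8, 7.77, 13.0, 11.3 and 34.0% of the Ang and Rnase4 reads in WT IntSCs 1 to 6. In KO IntSCs 1 to 5 the share was 0.441, 3.23, 1.67, 0.358 and 3.88%. In WT LECs 1 to 4 it was 18.9, 35.4, 9.67 and 28.1%, and in KO LECs 1 to 3 it was 0.0625, 0.0195 and 0.101%. The groups of different genotype did not overlap, and the KO LEC shares were below all KO IntSC shares.

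The exact (Clopper-Pearson) 95% intervals of the share cover counting error only, and they treat each read as a separate molecule. Reads copied by PCR and carrying no molecular identifier cannot be told apart, so the intervals can be too narrow. The same holds for the intervals of the summed Ang reads above. The highest share of a KO IntSC library, 3.88% in library 5, had an interval of 2.88 to 5.11%. The lowest share of a WT library, 7.77% in WT IntSC 3, had one of 6.33 to 9.41%. The 1 Ang read beside 5119 Rnase4 reads in KO LEC 2 had an interval of 0.000494 to 0.109%. The intervals of KO LEC 3, 0.021 to 0.294%, and of KO IntSC 4, 0.098 to 0.914%, overlapped. These intervals do not cover the spread between libraries.

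**Figure D3:**
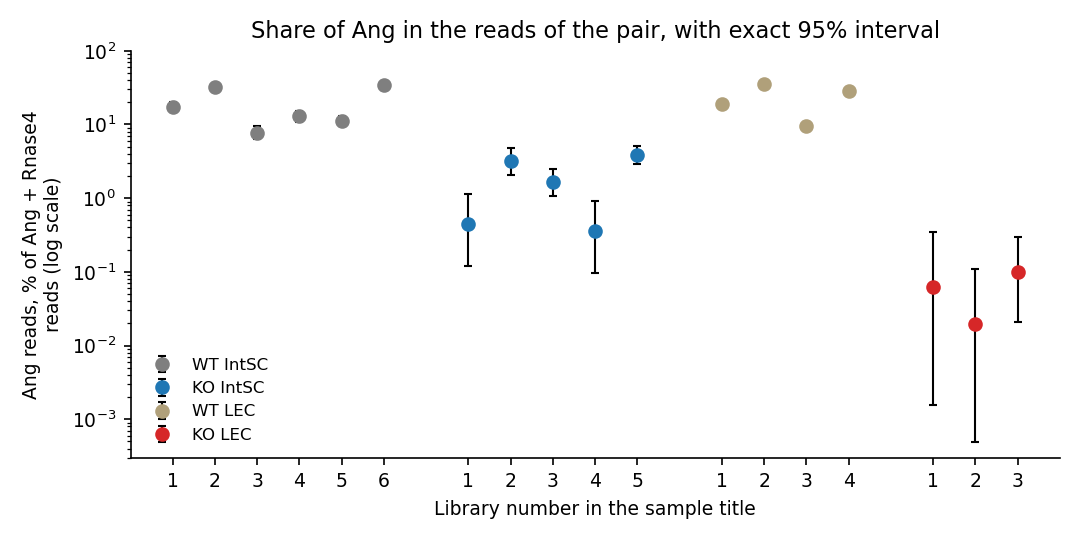
Ang reads as a percentage of Ang plus Rnase4 reads in each library, on a log axis, with exact 95% binomial intervals, by library number in the sample title. WT libraries sit between 7.77% and 35.4%, and KO libraries between 0.0195% and 3.88%.

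The sum of both genes averaged 139 ± 31.7 (SD, n = 6) for WT and 143 ± 30.8 (SD, n = 5) for KO IntSCs, in CPM. For LECs it averaged 211 ± 30.1 (SD, n = 4) and 374 ± 153 (SD, n = 3). The summed level in IntSCs therefore differed between genotypes by less than the spread between libraries, while the share of Ang in it did not overlap. Among WT libraries the share of Ang ranged from 7.77% to 34.0% in IntSCs and from 9.67% to 35.4% in LECs. Libraries with number 3 had the lowest share in WT of both cell types. Same-numbered WT IntSC and LEC libraries had 17.2 and 18.9%, 31.8 and 35.4%, 7.77 and 9.67%, and 13.0 and 28.1%, with the LEC library the higher in each of the 4.

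Across WT IntSCs, Ang was high where Rnase4 was low. Over these 6 libraries, Pearson's r of log2(CPM + 1) was −0.793 and Spearman's rho −0.943. Over all 18 libraries, centred on group means, r was −0.371. Ang and Rnh1 had an r of −0.006 and Rnase4 and Rnh1 of −0.122 over the same 6 libraries. These values are descriptions, because the points share their scaling and, over all 18, their groups.

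**Figure D4:**
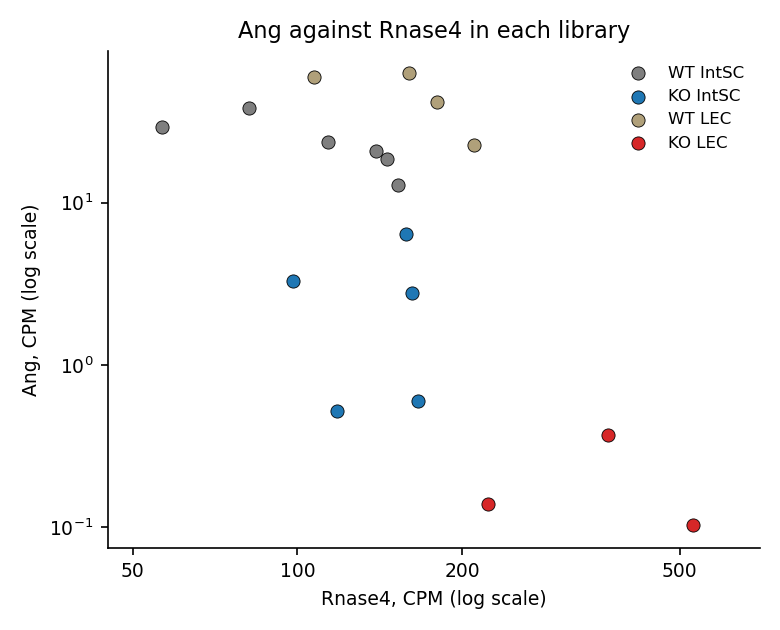
Ang against Rnase4 in each of the 18 libraries, both in CPM on log axes, coloured by group. WT IntSC points run from low Rnase4 and high Ang to high Rnase4 and low Ang, and KO LEC points lie at the lowest Ang and the highest Rnase4.

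Between WT cell types, all members were higher in LECs by their means. None of the 3 passed the test, while 2763 of 12203 genes did (22.6%). The genes were not chosen by this comparison, but its WT libraries also entered the comparisons that chose them. The p-values between WT cell types are therefore not independent of that choice. Ang was at 46.4 in LECs against 23.8 CPM in IntSCs, a log2 difference of 0.96 (SE 0.434, 95% interval 0.11 to 1.81, edgeR adjusted p = 0.135). It was above every WT IntSC library in 3 of 4 WT LEC libraries. Rnase4 differed by 0.53 (SE 0.295, interval −0.05 to 1.10, edgeR adjusted p = 0.241). Rnh1 differed by 0.58 (SE 0.340, interval −0.09 to 1.25, edgeR adjusted p = 0.267).

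At an unadjusted p the edgeR test gave 0.0417 for Ang, 0.094 for Rnase4 and 0.109 for Rnh1. DESeq2 and limma-voom also called none of them, with adjusted p of 0.144 and 0.109 for Ang. Rnh1 passed only when WT LEC 2, its lowest library at 76.3 CPM, was left out, with a log2 difference of 0.84 (edgeR adjusted p = 0.0303). The difference in the log2 ratio of Ang to Rnase4 counts was 0.38 between WT LECs and WT IntSCs. A two-sided exact permutation test of this difference gave p = 0.6, where the smallest possible p is 0.00952. Libraries were not paired by number in it, although the LEC library had the higher Ang share at each shared number. A difference within same-numbered libraries was not tested, and the result does not show that the cell types have the same ratio.

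Near-identical copies could in principle take reads from Ang. The other mouse angiogenins Ang2 to Ang6 together had 2 reads in WT IntSCs, 35 in KO IntSCs, 2 in WT LECs and 33 in KO LECs, against 875, 103, 1780 and 5 for Ang. The 33 reads in KO LECs were all Ang4, in KO LEC 3. Adding them to Ang changed the log2 fold change in LECs from −7.67 to −4.80. Of 455 words of 50 bases from the last 500 bases of Ang transcripts, 0 occurred in the transcripts of another gene, and the same held for 455 words of Rnase4 and 1088 of Rnh1. How the authors treated reads that match several genes is not given in the sources used here.

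Of the Paneth cell genes, 2 of 4 tested passed in IntSCs, both higher in KO (Lyz1 and Defa24), and 0 of 3 passed in LECs by edgeR, with 3 at an unadjusted p under 0.05, 2 called by DESeq2 and 0 by limma-voom. The summed level of 6 Paneth genes (lysozyme and defensin genes among them, without Ang4) ranged from 0.677 to 37.3 CPM in WT IntSCs and from 89.0 to 183 CPM in KO IntSCs. In LECs it ranged from 0.600 to 21.1 CPM in WT and from 38.8 to 358 CPM in KO, where KO LEC 3 was the highest. Their part in the levels of Ang and Ang4 was not tested.

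Other ribonucleases of the family had few reads, except Rnase10 in some WT libraries, with up to 11.8 CPM in WT IntSC 3. Of 25 listed genes outside the members, 23 were in the tables, 12 of these had no read, and all together had 315 reads in 18 libraries. None had enough reads to be tested between genotypes. Rnase10, singled out after its values were seen, held 215 of these reads. It had 29, 87 and 35 reads in WT IntSCs 2, 3 and 5, 61 in WT LEC 1 and 3 in KO IntSC 5, and no read in the remaining 13 libraries. Rnase1, the pancreatic enzyme, had 5 reads in KO IntSC 3 alone, and Rnase6 had 13 in that library.

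Of 6 genes reported to encode proteins that bind angiogenin, 4 were tested in IntSCs and 1 passed, where 1.47% of all genes did. Fbln1, fibulin 1 of the extracellular matrix, fell from 226 ± 70.5 CPM in WT to 111 ± 19.3 CPM in KO IntSCs (log2 fold change −1.03, SE 0.228, edgeR adjusted p = 0.0229). Of the 10 stromal markers, 9 had a negative log2 fold change in the same comparison, with a median of −0.55, and 2 passed, Col3a1 (−0.92) and Col6a2 (−1.29). Their part in the level of Fbln1 was not tested. Plxnb2, the plexin receptor described for angiogenin, was at 71.1 against 85.6 CPM (edgeR adjusted p = 0.805). Ncl, nucleolin, was at 538 and 618 CPM (edgeR adjusted p = 0.804). The median log2 fold change of the 4 genes was −0.05, against 0.00 (0.003) over all genes.

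In LECs, 3 of these 6 genes were tested and 0 passed by edgeR, by DESeq2 or by limma-voom, with 0 at an unadjusted p under 0.05. Plxnb2 had a mean of 14.4 CPM in WT (SD 9.34, n = 4) against 0.372 CPM in KO LECs (SD 0.645, n = 3), and the log2 difference of −5.20 had an SE of 2.53 (edgeR adjusted p = 0.678). Between WT cell types, where 22.6% of all genes passed, 3 of 4 passed and were lower in LECs. They were Fbln1 (5.72 CPM, log2 difference −5.29, edgeR adjusted p = 0.000744), Plxnb2 (−2.29, edgeR adjusted p = 0.00887) and Egfr, the epidermal growth factor receptor (−4.98, edgeR adjusted p = 0.028). Stromal markers stood at 714 to 2388 CPM in WT LECs and at 13320 to 19180 CPM in WT IntSCs.

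Over all genes tested, 1.47% passed in IntSCs and 0.0658% in LECs, so that lists of 11 to 16 genes with no call do not stand apart from the rest. Of 12 genes of tRNA modification and stress granules, 0 passed in IntSCs and 0 in LECs by edgeR, with 1 at an unadjusted p under 0.05 in each and 0 by DESeq2 and limma-voom. Of 13 genes of RNA polymerase I transcription, 13 were tested in IntSCs and 11 in LECs, and 0 passed in either by edgeR. At an unadjusted p under 0.05 there were 0 and 1, DESeq2 called 0 and 1, and limma-voom 0 and 0. Of 16 ribonucleases of other families, 16 and 15 were tested, 0 passed by edgeR, DESeq2 or limma-voom, and 3 and 1 had an unadjusted p under 0.05.

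The Rn45s row, named for the precursor of ribosomal RNA, took 13.0 to 24.4% of counts in WT IntSCs and 11.6 to 20.9% in KO IntSCs. It took 7.02 to 12.4% in WT LECs and 9.04 to 10.7% in KO LECs. It did not pass between genotypes (log2 fold change −0.10, edgeR adjusted p = 0.966 in IntSCs, and 0.14, edgeR adjusted p = 1 in LECs). It was lower in WT LECs than in WT IntSCs by −1.03 on the log2 scale (edgeR adjusted p = 0.00596). Whether its reads came from the precursor or from mature ribosomal RNA cannot be seen in count tables. They are therefore not read as a measure of ribosomal RNA transcription.

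Between WT cell types, where 22.6% of all genes passed, each of these 3 lists had 1 call, among 12, 13 and 16 genes tested. The calls do not set the lists apart from the rest. G3bp1, a stress granule core protein, was at 133 CPM in LECs against 70.9 CPM in IntSCs (log2 difference 0.91, edgeR adjusted p = 0.0376). Polr1d, a subunit shared by polymerases I and III, was at 102 against 42.2 CPM (1.29, edgeR adjusted p = 0.018). Endou, an endoribonuclease, had no read in the 4 WT LEC libraries and 13.7 ± 13.0 CPM in IntSCs (SD, n = 6, edgeR adjusted p = 0.003).

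**Figure D5:**
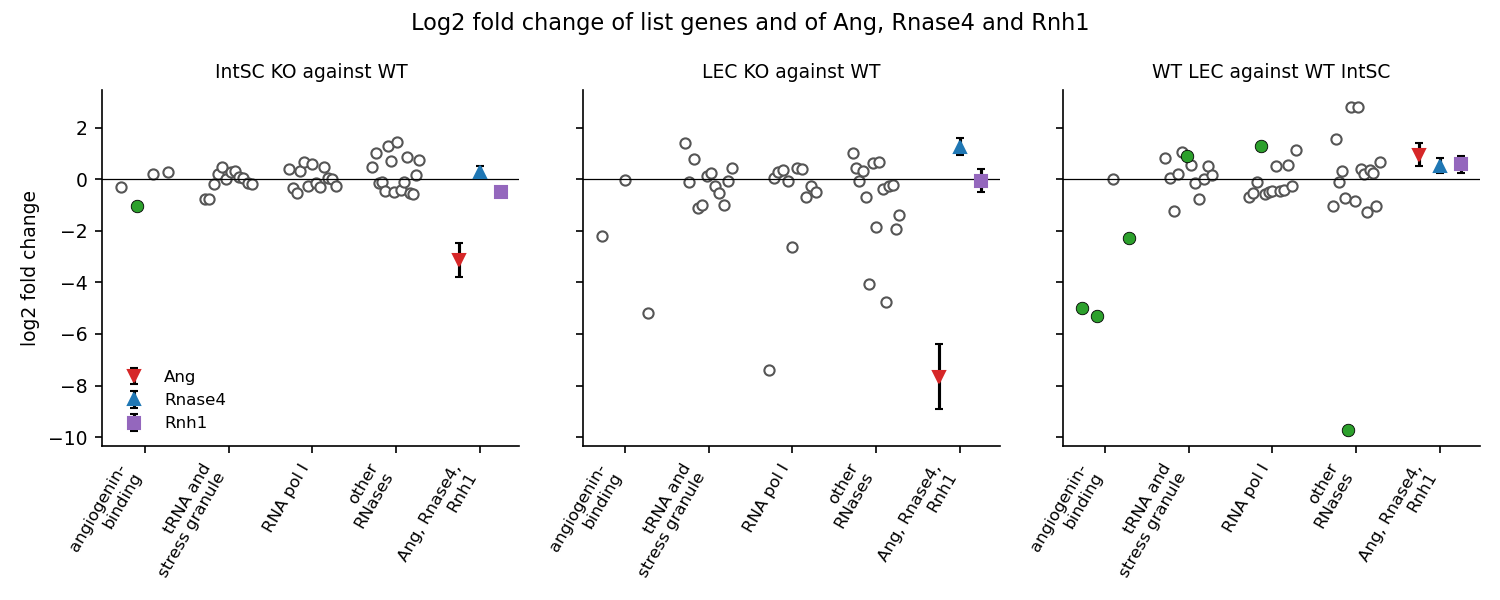
Log2 fold change of the tested genes of the 4 lists (circles) and of Ang, Rnase4 and Rnh1 (with SE) in the comparison of genotypes in IntSCs and LECs and of WT LECs with WT IntSCs. Filled green circles passed the edgeR threshold of 0.05. Ang lies below every list gene in both genotype comparisons, but it was chosen for its low values there. In LECs Polr1b, at −7.40 (SE 3.01), is close to Ang, at −7.67 (SE 1.26).

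The genes whose pattern over the 18 libraries was most like each member were found by Pearson's r of log2(CPM + 1) among genes with a mean of at least 5 CPM. For Ang they were Ccdc78 (0.820), Hsp90ab1 (0.812), Rnf135 (0.780), Tcf7l1 (0.779) and Kctd2 (0.775). Ccdc78 had a mean of 17.1 CPM in WT LECs (SD 4.65, n = 4) against 0.213 CPM in KO LECs (SD 0.269, n = 3), but at 6.57 and 5.11 CPM in WT and KO IntSCs. Rnf135 was at 12.3 and 0.0809 CPM in WT and KO LECs. The differences between groups enter these values.

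For Rnase4 the most alike genes were Sumo2 (0.864), Lsm8 (0.859), Med6 (0.842), Nmb (0.837) and Rer1 (0.832). Nmb, the peptide neuromedin B, had a mean of 22.9 CPM in WT LECs (SD 14.0, n = 4) against 104 CPM in KO LECs (SD 17.9, n = 3). For Rnh1 they were Cenpb (0.860), Tsen34 (0.827), Pdlim4 (0.824), Npdc1 (0.821) and Gstp1 (0.808). Between Ang and Rnase4 the r was −0.550 over the 18 libraries and −0.371 centred on groups, and the first of these holds the group differences by which the genes were chosen.

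Among the 20 nearest genes of the Ang and Rnase4 locus, most had too few reads. Rnase10 is among these 20 and was not tested between genotypes. In IntSCs 5 were tested and 0 passed by edgeR, DESeq2 and limma-voom, with 1 at an unadjusted p under 0.05. Their log2 fold changes ran from −3.55 (Pnp2, edgeR adjusted p = 0.437) to 0.50 (Apex1), with a median of −0.47. In LECs 4 were tested, 0 passed by these tools and 0 were under 0.05 unadjusted. Of the 20 genes nearest to Rnh1, 10 were tested in IntSCs, and Ifitm3, an interferon-induced membrane protein, was lower in KO (log2 fold change −0.65, edgeR adjusted p = 0.0339). In LECs 10 were tested and 0 passed by edgeR, DESeq2 and limma-voom, with 1 at an unadjusted p under 0.05. Between WT cell types 3 of 11 passed, where 22.6% of all genes did, so nothing is read from this count. Ifitm1 was lower in LECs (log2 difference −3.45), and Ifitm3 (1.08) and the small GTPase gene Hras (1.80) were higher.

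Ang lies 6.60 Mb from Lats2 on chromosome 14, the gene that the KO mice carry in floxed form. Within 10 Mb of Lats2, 2 of 149 genes tested in IntSCs passed (1.34%), Ang itself and Scara5, against 1.47% of all placed genes. In LECs, Ang was the 1 gene of 128 (0.781%), against 0.0472% of all placed genes. Ang was chosen for these values, so nothing is read from either share. The part of this distance in the levels of Ang was not tested.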

How the data were processed

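RNA from sorted cells was made into 3′-end (QuantSeq) libraries and sequenced on a NextSeq 500. The authors deposited raw read counts by gene symbol, with no normalisation, in 1 table per library (23282 rows, 23238 symbols, 35 of them on more than 1 row and summed). Per the submitters' processing notes, Bowtie2, edgeR and build mm10 were used, and the study's methods name TopHat and Cufflinks. The counter, its annotation and its use of strand are not given in the sources used here. Groups came from the sample titles. The members and gene lists were chosen with earlier results of these data known.

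The count test was that of edgeR 4.0.16 under R 4.3.3 (TMM, filterByExpr, robust quasi-likelihood fit, Benjamini-Hochberg adjustment over all genes tested, threshold 0.05), with only the 2 groups compared in a fit. Each SE came from the log2 fold change and the F statistic. The procedure was tested on simulated data. Levels are CPM with TMM factors over 18 libraries. The ratio of Ang to Rnase4 counts (0.5 added to each) was compared by an exact permutation test (scipy 1.17.1). The genes named were the members, up to 4 passing genes of each list by adjusted p, set genes (Ang4, Rnase1, Plxnb2, Ncl, Rn45s and 1 that is not reported here), the 5 genes most like each member, passing genes among the 10 nearest on each side of each locus, and Lats1 and Lats2. Alternatives were DESeq2 1.42.0, limma-voom (limma 3.58.1), RLE and upper-quartile factors, 2 other count filters, the replicate block, all 4 groups in 1 fit, no Rn45s, each library left out, and, chosen after seeing the data, Ang summed with the other angiogenins. No 2 libraries of a group agreed within sampling noise.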

Additional observations from a re-analysis of the deposited data

Results flagged for a closer look

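No value of Ang, Rnase4 or Rnh1 stood apart within its group, and of 36 groups of values examined, 4 held a library far from the others, where chance alone would set apart about 1.8. The summed stromal markers were at 2388 CPM in WT LEC 1, against 714 to 760 CPM in the other WT LEC libraries, while Ang in that library was at 41.8 CPM, between those of the others. The summed epithelial markers were at 139 CPM in WT IntSC 6, against 0.688 to 36.7 CPM in the other WT IntSC libraries, and this library had the lowest Rnase4 level of its group, 56.5 CPM. The summed leukocyte markers were at 146 CPM in WT LEC 4, against 76.6 to 82.7 CPM. The total count of WT LEC 2 was 7464241, against 10374749 to 10549233 in the others, and this library had the lowest Rnase4 and Rnh1 levels of the WT LECs. The summed LEC markers of KO LEC 3 were not among the 4 set apart, but were at 16280 CPM, against 11540 and 11670 CPM in the other KO LEC libraries. The part of these libraries in the levels of the members was not tested beyond leaving each of them out.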

How the results depend on the processing

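The log2 fold change of Ang kept its sign under every alternative: −3.71 to −2.72 in IntSCs and −8.38 to −4.80 in LECs, where leaving out each library in turn gave −8.38 to −7.33 and summing Ang with the other angiogenins gave −4.80. Rnase4 stayed positive, at 0.16 to 0.40 in IntSCs and 0.93 to 1.54 in LECs, and Rnh1 in IntSCs stayed between −0.59 and −0.40. Between WT cell types the members kept their sign and, in 57 of 58 alternatives, their side of the threshold, with edgeR, DESeq2 or limma-voom adjusted p of 0.0665 to 0.353 for Ang and 0.129 to 0.484 for Rnase4. For Rnh1 adjusted p ran from 0.0303 to 0.65, and the difference was 0.29 to 0.84 with each library left out, and 0.84 without WT LEC 2. The difference in the ratio of the pair was 0.04 to 0.82. The median of all genes moved from −0.04 to −0.15 with upper-quartile factors and −0.28 with limma-voom in this comparison.

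The count of genes called moved more, and the cause was not tested. In IntSCs it was 183, against 376 with DESeq2, 27 with all 4 groups in 1 fit (81.5% of them higher, against 57.9%) and 99 to 186 with each library left out. The lower counts were 121 without WT IntSC 1, 105, 101, 99 and 121 without KO IntSC 1, 2, 3 and 5. In LECs it was 7, against 309 with DESeq2, 12 with limma-voom, 32 with every gene of at least 1 read, 20 with a mean count of at least 10 and 538 with all 4 groups in 1 fit. With each LEC library left out it was 0 to 16: 1, 0 and 2 without WT LEC 2, 3 and 4, and 3, 16 and 4 without KO LEC 1, 2 and 3. The 0 is from edgeR, with 594 genes at an unadjusted p under 0.05. The numbers in the titles were not taken as pairs, because no correlation of same-numbered libraries was over 0.1 and the labels tie no number to an animal. Their mean was 0.003 in IntSCs, 0.0001 in LECs and 0.0237 between WT cell types, where all 4 were positive. Libraries of different number had a mean of −0.0047 between WT cell types, so these values do not exclude pairs there. With the replicate block the count was 122 in IntSCs, 3 in LECs and 1596 between WT cell types, against 2763. With 1 to 3 Ang reads in KO LECs, the size of the Ang fold in LECs is poorly fixed. Genes with at least 1 read numbered 10576 to 11001 in KO LEC libraries, against 11490 to 12059 in WT LEC libraries. The part of this in that fold was not tested.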
